A study of Triticum aestivum with 4 samples.

Results

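The known miRNAs described here were the less conserved plant miRNA names that were listed above 0 in the jointing library of winter wheat leaves and at 0 in the other 3 libraries. They were chosen by their listed values themselves: of the 371 different names in the table of known miRNAs, 180 carried a miR number above 900 outside the series of grass and wheat miRNAs and a few conserved families, and 40 of these 180 names (22.2%) met the condition. Wild-type winter wheat of the cultivar Shimai 22, which the paper describes as semi-winter, had been grown in the field without treatment. Leaves were taken at 4 stages: three-leaf, winter dormancy, spring green-up and jointing, when the stem begins to elongate. The question of the study was how leaf miRNAs vary through cold acclimation and the change to reproductive growth. Each stage was sequenced once, because equal amounts of RNA from 3 biological replicates had been mixed before the library was made. No difference between stages therefore has a replicate check in the sequencing data, and no test was made here. The paper itself called differences between stages with DEGseq and checked some miRNAs by qRT-PCR. Levels are RPM, taken as reads per 1000000 mapped reads. On that reading 1 read was worth 0.0493 RPM at three-leaf, 0.0487 in winter dormancy, 0.0552 at spring green-up and 0.0458 at jointing, the deepest library. Reads behind a level were estimated from these values, and the intervals are exact 95% Poisson intervals on the estimated reads, which cover counting error only. In a pooled leaf sample, fewer cells with a miRNA and less of it per cell cannot be told apart. The tissue label could not be checked against marker genes, because the tables list only miRNAs.

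Plant miRNAs are cut from hairpin precursors by a Dicer-like enzyme as a duplex of both arms, and usually a single strand is then loaded into an Argonaute protein. The strand guides the cleavage or translational repression of transcripts to which it pairs over nearly its whole length. Canonical plant miRNAs are mostly of 21 nt with a 5′ uridine, the base favoured by AGO1, whereas the small interfering RNAs of 24 nt that direct DNA methylation mostly begin with adenosine and are loaded into AGO4. A name in the known table means only that wheat reads matched a mature miRNA of some plant, with a small number of mismatches allowed. Some of the 40 names were first given in plants far from wheat, such as miR1216 and miR1223 in the moss Physcomitrella, miR1163 in the green alga Chlamydomonas, miR2634 and miR5240 in Medicago, and miR2949 and miR3476 in cotton. Others came from grasses, such as miR5387 from sorghum, miR2873 from rice and miR7710 from Brachypodium. The sources used here do not say whether the sequence listed for a name is that of the wheat reads or that of the database entry, so that length, first base and GC content below are properties of the listed sequence and may differ from those of the wheat reads. No function in wheat leaves is given here for any of them, and their genome positions were not analysed here.

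The sequences below are those listed for 7 of the 8 members above 20 RPM at jointing, which hold most of the reads of the 40, with bases 2 to 8 (the seed) in capitals.
miR3441-5p.1: uCAAAGCAucuugacagacca
miR5240: uGUUAAAAauugcggauuuuu
miR8135: aAUAUAUUugcagguuugagg
miR5387a: gUGGCACGaaccggugcuaaaggu
miR1216: uGUGCUGAugucgguuguauc
miR1223j: uGGCUAGAgcaugcacuucua
miR2873b: gUUUGGACuugaguagguugaa

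The next sequences are members that resemble or pair with another listed name, again with the seed in capitals. miR8594.2 and miR9569-5p are the same sequence under 2 names. The miR2949a and miR3476 names are, by their names, the opposite arms of a hairpin, which was not examined in wheat. The others are discussed with their values.
miR8594.2: uUAUCAUUgguguaguugaca
miR9569-5p: uUAUCAUUgguguaguugaca
miR2949a-3p: cCUGCAAAuccagucaaaagu
miR2949a-5p: aCUUUUGAacuggauuugccga
miR3476-3p: aGCCAACAacaucaguucuaa
miR3476-5p: uGAACUGGguuuguuggcugc
miR2950: uGGUGUGCaggggguggaaua
miR2950-3p: uGGUUUGCucugggauggaau
miR3267: uCUGUCGCaggggagauggcug
miR3627-5p: uUGUCGCAggagagauggcacu

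The 3 highest names accounted for most of the signal. miR3441-5p.1 was listed at 957.6 RPM in the jointing library (945 to 971), miR5240 at 844.4 RPM (832 to 857) and miR8135 at 688.4 RPM (677 to 700), against 0 in each of the other 3 libraries. Their intervals did not overlap, and they ranked 22, 24 and 29 among the 294 known names above 0 at jointing. Together they made up 89.5% of the 2783.7 RPM summed over the 40 members. All are of 21 nt, with GC contents of 42.9% in miR3441-5p.1, 23.8% in miR5240, the lowest among the members, and 33.3% in miR8135. miR3441-5p.1 and miR5240 begin with U and miR8135 with A.

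A gap of 15.8-fold separated miR8135 from the next name, miR5387a, at 43.7 RPM (41 to 46.6). Below it came miR1216 at 37.7 RPM (35.2 to 40.4), miR1223j at 30.7 RPM (28.4 to 33.1) and miR2873b at 27.3 RPM (25.2 to 29.6). Of these 4 names, only miR1223j and miR2873b had overlapping intervals. No member lay between 43.7 and 688.4 RPM.

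Another 10 members lay between 5 and 20 RPM, namely miR8051-3p (17.5 RPM), miR8594.2 (14.5 RPM), miR9569-5p (13.2 RPM), miR1163.2 (9.9 RPM), miR9760 (9.6 RPM), miR8768 (7.1 RPM), miR2950-3p (6.8 RPM), miR2634 (6.4 RPM), miR2950 (6.2 RPM) and miR7495a (5.4 RPM). The intervals of neighbours overlapped from miR8051-3p down to miR9569-5p, between miR1163.2 and miR9760, and from miR8768 down to miR7495a. No test was made of the order of these names. The remaining 22 members were at or below 5 RPM, led by miR7710-3p and miR8633 at 4.3 RPM each. Among them 12 were above 1 RPM and 10 at or below it. The lowest were miR3476-3p, miR8646 and miR9737 at 0.5 RPM (0.252 to 0.902), a level that rests on about 11 reads. In all, 31 of the 39 neighbouring pairs in the order of levels had overlapping intervals.

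**Figure D1:**
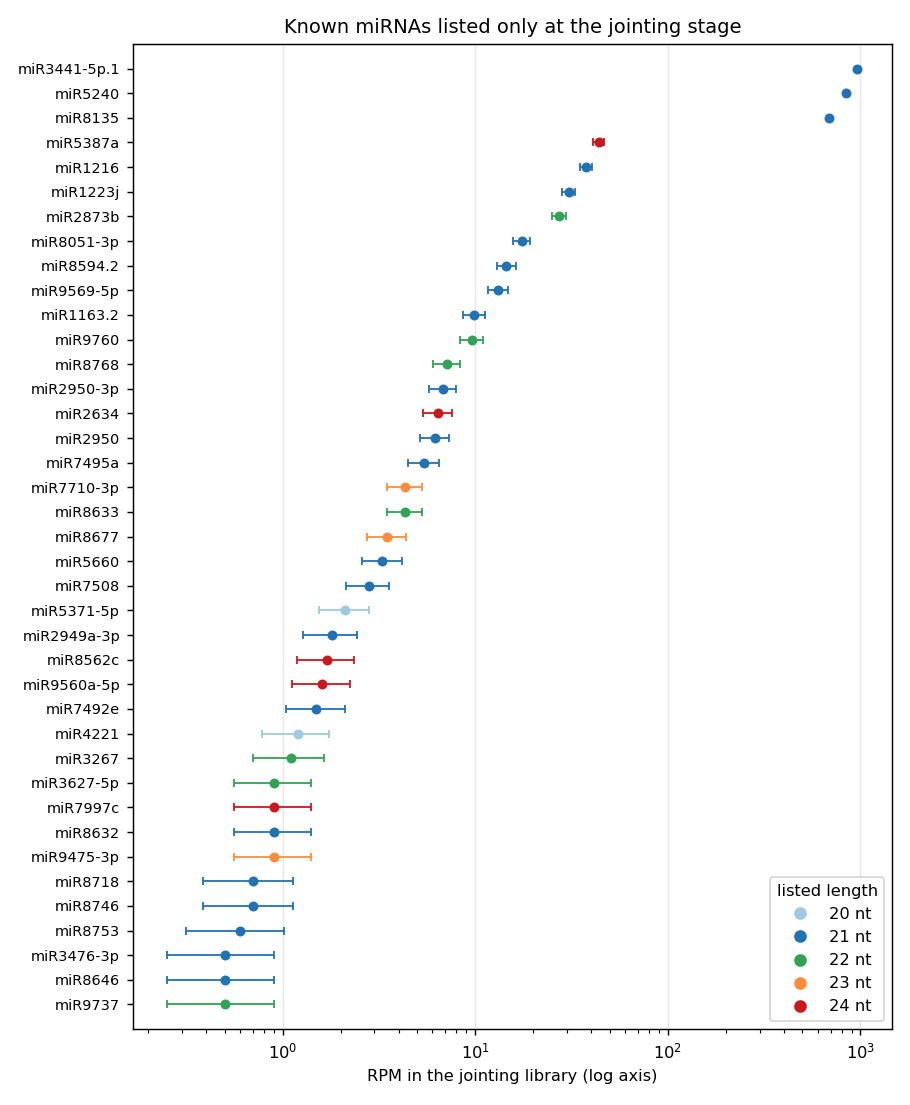
Level of 39 of the 40 members in the jointing library, in RPM on a log axis, with exact 95% Poisson intervals as bars and the listed length as colour. The top 3 names lie between 688.4 and 957.6 RPM, and all others lie at or below 43.7 RPM.

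The members held 1.58% (exact binomial 95% interval 1.57 to 1.59) of the 176416.5 RPM summed over all known names at jointing. Their median at jointing was 3.9 RPM, against 28.2 RPM for the other 95 of the 180 names that were above 0 in that library. The listed zeros do not give an upper limit, since the smallest values above 0 in the known table were 0.5, 0.3, 0.4 and 0.5 RPM in the order of the stages, so that values of only a few reads do not occur in it. The 10 members at or below 1 RPM were also all of the names among the 180 that lay in that range in the jointing library, so that no name at this level at jointing had been listed earlier. For these 10 names the difference from a listed 0 is a matter of 11 to 20 estimated reads.

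Because the members were selected on these values, their number is read only against the same count in the other libraries and tables. Listing at 1 stage only was met by 8 of the 180 names at three-leaf (4.44%), 10 in winter dormancy (5.56%), 13 at spring green-up (7.22%) and 40 at jointing (22.2%). Of the 180 names, 93 were above 0 at three-leaf, 109 in winter dormancy, 99 at spring green-up and 135 at jointing. Each of these counts includes the names listed at that stage only, so that the 135 hold the 40 members beside 95 other names. They are therefore not separate from the selection. The jointing library was the most deeply sequenced. Whether depth has a part in the number was not tested. Over all known names the share listed only at jointing was 15.9%, namely 59 of 371, and among the 191 names outside the number rule it was 9.95%, with 19 names. Of the 82 miRNAs that the authors predicted from hairpins, 9 were listed only at jointing (11%).

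The names listed only at jointing had a lower median level than those listed at 1 other stage only, each in its own library. The medians were 7.05 RPM for the names only at three-leaf, 11.4 RPM for winter dormancy, 25.8 RPM for spring green-up and 3.9 RPM for jointing. At or below 1 RPM were 1 of 8 names at three-leaf, 0 of 10 in winter dormancy, 1 of 13 at spring green-up and 10 of 40 at jointing. Above 5 RPM there were 4 names at three-leaf, 6 in winter dormancy, 9 at spring green-up and 18 at jointing. The highest single-stage names of the earlier libraries were miR1509b at three-leaf (400.3 RPM), miR5809 in winter dormancy (132.2 RPM) and miR8742a at spring green-up (397.5 RPM), and each of them was below all of the top 3 members.

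**Figure D2:**
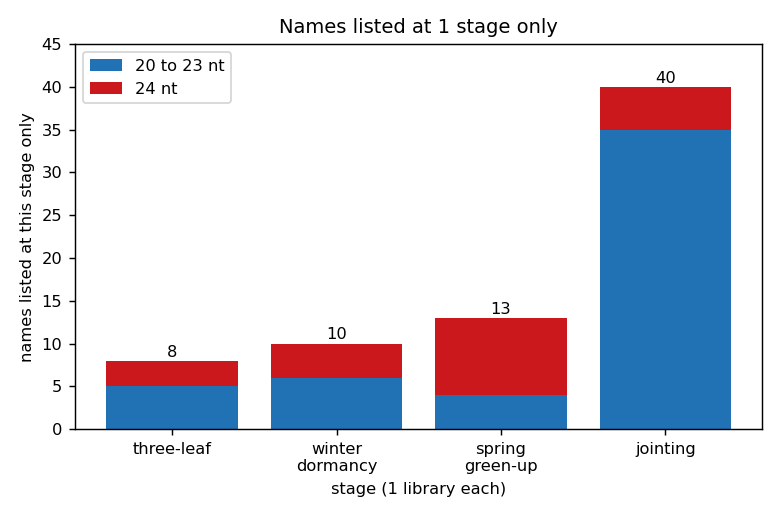
Number of the 180 names that were listed at 1 stage only, by stage, with names of 24 nt in red and names of 20 to 23 nt in blue. Jointing has 40 such names, 5 of them of 24 nt, and spring green-up has 13, of which 9 are of 24 nt.

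Listed length was not used to choose the members. Of the 40, 23 were of 21 nt (57.5%), 7 of 22 nt, 5 of 24 nt (12.5%), 3 of 23 nt and 2 of 20 nt. Among the other 140 names, 49 were of 21 nt (35.0%) and 59 of 24 nt (42.1%). The contrast was wider against the 45 names that were at 0 at jointing, of which 11 were of 21 nt (24.4%) and 25 of 24 nt (55.6%), and narrower against the 63 names above 0 at all 4 stages, with 46% of 21 nt and 28.6% of 24 nt. By level, names with a listed length of 21 nt took 95.8% of the RPM of all members and those of 24 nt took 1.95%, most of it miR5387a, although the lengths of the reads themselves were not given. These are descriptions of the listed names, and no test was made of them.

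The length mix differed also among names of low level. Of the 22 members at or below 5 RPM, 3 were of 24 nt (13.6%), whereas 19 of the 27 other names that never exceeded 5 RPM at any stage were of 24 nt (70.4%). Among the 18 members above 5 RPM, 13 were of 21 nt (72.2%) and only miR5387a and miR2634 were of 24 nt. Of the 31 names listed at 1 earlier stage only, 16 were of 24 nt (51.6%).

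The listed sequence began with uridine in 24 of the 40 members (60.0%), against 46 of the other 140 names (32.9%) and 10 of the 45 names at 0 at jointing (22.2%). The share was 38.1% in the 63 names above 0 at all stages and 37.9% in the other 95 names above 0 at jointing. It was 40.7% in the 27 other names that never exceeded 5 RPM. Adenosine came first in 7 members, cytidine in 5 and guanosine in 4. Within the length of 21 nt the contrast was smaller, with U first in 15 of 23 members (65.2%) and in 24 of the 49 other names (49.0%). Among the members above 5 RPM, 12 of 18 began with U, 4 with G (miR5387a, miR2873b, miR1163.2 and miR2634), 2 with A (miR8135 among them) and none with C. The median GC content was 41.7% in the members, with a range from 23.8% in miR5240 to 71.4% in miR1163.2, and 47.6% in the other 140 names. At 21 nt it was 42.9% in the members and 47.6% in the others.

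**Figure D3:**
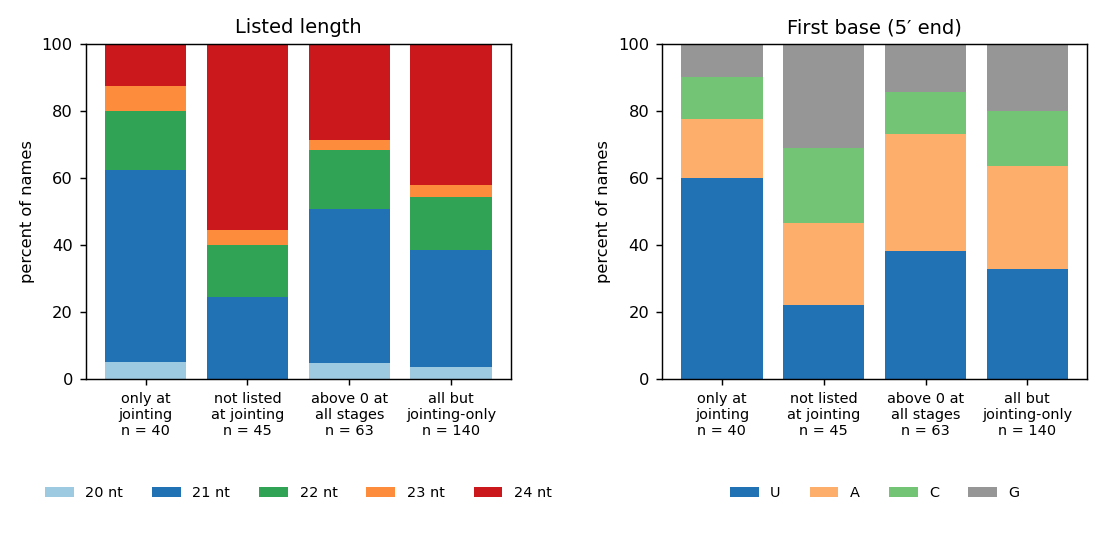
Listed length (left) and first base (right) as percent of names, for the 40 members, the 45 names at 0 at jointing, the 63 names above 0 at all 4 stages and the 140 names that are not members. In the members 12.5% are of 24 nt and 60.0% begin with U, against 55.6% and 22.2% in the names at 0 at jointing. In the names above 0 at all 4 stages the shares are 28.6% and 38.1%.

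For 4 of the 40 members (10%) another listed name was identical or nearly so, by an ungapped overlap that runs to the sequence ends, of at least 18 nt with at most 2 mismatches, and the same held for 23 of the other 140 names (16.4%). miR5387a is the only member whose near-identical name was listed at an earlier stage. It differs from miR5387b in 1 of 24 bases, which is A16G from miR5387b to miR5387a, counted from the 5′ end. The 2 names are shown here with that base in capitals.
miR5387a: guggcacgaaccgguGcuaaaggu
miR5387b: guggcacgaaccgguAcuaaaggu
miR5387b was listed at 49.2 RPM at three-leaf (46.2 to 52.4), 47.5 RPM in winter dormancy (44.6 to 50.6), 77.2 RPM at spring green-up (73.2 to 81.3) and 0 at jointing, so that each library listed exactly one of the names. The 43.7 RPM of miR5387a at jointing (41 to 46.6) overlapped in interval with miR5387b at three-leaf and in winter dormancy and was below miR5387b at spring green-up. Summed over both names, miR5387 was therefore present at all 4 stages, and its absence before jointing holds for the name miR5387a and not for sequences within 1 mismatch of it. Reads were assigned to names with mismatches allowed, and whether the assignment has a part in the exchange of names was not tested.

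miR8594.2 and miR9569-5p carry the same 21 bases and were listed at 14.5 RPM (13.0 to 16.2) and 13.2 RPM (11.7 to 14.8) at jointing. The intervals overlap, and the sum of both names is 27.7 RPM (25.5 to 30). Whether the same reads were counted under both names was not tested, so that this sum and its interval may count reads more than once. The sum over the 40 members includes both names. The 40 members thus stand for 39 sequences, with 39 different seeds. miR9475-3p, at 0.9 RPM, has the same 23 bases as miR478a, a name with a low number that was listed at 1.0 RPM at jointing and at 0 before. For this pair, too, shared reads were not tested. The seed of miR7495a (5.4 RPM at jointing) is also that of miR1121, which was listed at 8.5 RPM at three-leaf and at 0 afterwards. Those 2 names differ at 10 of 21 bases and are not near-identical.

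The opposite arm, as given by the names, was listed for miR2949a-3p and miR3476-3p, and in both cases it was the more abundant arm. miR2949a-5p was listed at 1.0 RPM at three-leaf, 1.3 RPM in winter dormancy, 5.7 RPM at spring green-up and 160.2 RPM at jointing, and miR2949a-3p at 0, 0, 0 and 1.8 RPM. At jointing the 3p arm made up 1.11% of both arms (exact binomial 95% interval 0.785 to 1.5). miR3476-5p was listed at 0, 0, 0.9 and 13.0 RPM in the order of the stages and miR3476-3p at 0, 0, 0 and 0.5 RPM, with 3.7% of both arms in the 3p arm at jointing (1.88 to 6.57). The longest uninterrupted complementary run between the arms was 11 nt for miR2949a and 9 nt for miR3476. Paired without gaps, the arms had 6 mismatches in 21 bases for miR2949a and 4 in 19 for miR3476. Both measures took G:U pairs as mismatches and do not see pairing across a gap, so that the arms may pair more closely than these values show.

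**Figure D4:**
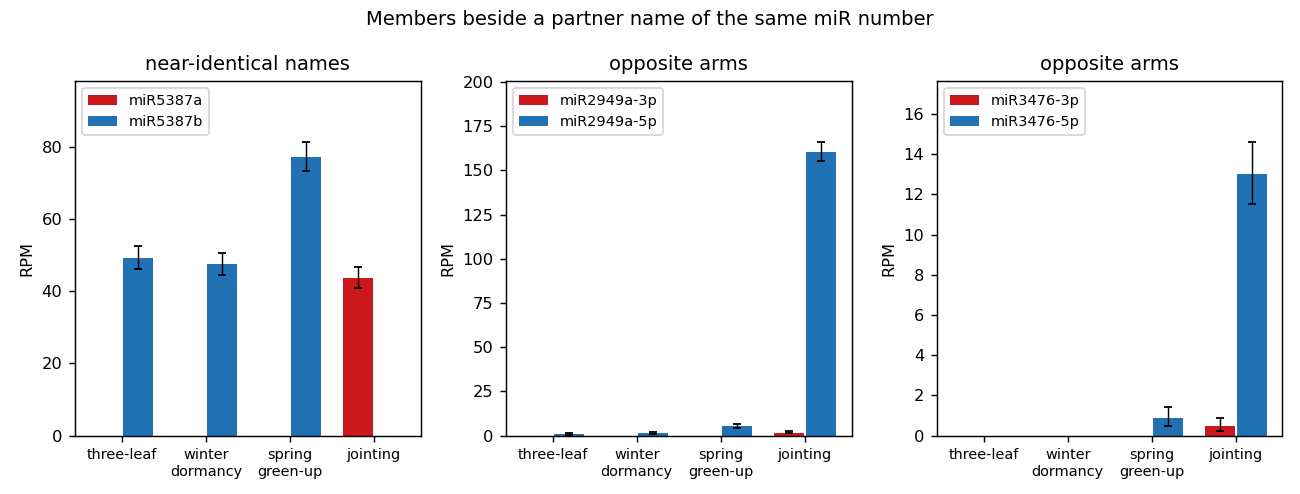
RPM by stage for miR5387a and miR5387b (left), both arms of miR2949a (middle) and both arms of miR3476 (right), with exact 95% Poisson intervals on values above 0. miR5387b stands at 47.5 to 77.2 RPM at the first 3 stages and miR5387a at 43.7 RPM at jointing, and at jointing the 5p arms reach 160.2 and 13.0 RPM.

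Among the other members, names with the same miR number were not near-identical by the ungapped overlap, which does not see likeness across a gap. miR2950 and miR2950-3p, both members, were listed at 6.2 RPM (5.18 to 7.32) and 6.8 RPM (5.73 to 7.96) at jointing. Their best ungapped overlap has 9 mismatches in 21 bases. Both begin with UGGU and hold UGGAAU at or near the end, shifted by 1 base, so that a gap would bring them closer. miR3627-5p was listed at 0.9 RPM at jointing, whereas miR3627a was listed at 51.2 RPM at spring green-up only, with 8 mismatches in 20 bases between them. miR3627-5p was closer to another member, miR3267 (1.1 RPM), with which it shares an inner stretch of 18 nt with 1 mismatch, although the overlap to the sequence ends has 4 mismatches in 21 bases. No member matched a sequence of the 82 predicted miRNAs, and none was found within a predicted precursor on either strand with at most 2 mismatches.

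The miR numbers were assigned in order of deposition, so that neighbouring numbers often come from 1 plant. Shares of members in blocks of numbers are given here as description only, and count only the names that the number rule keeps. Since the blocks were chosen with the values in view, they cannot show whether members are spread unevenly over the numbers. In 4 blocks of numbers chosen after the values were seen, members were 10 of 15 names from miR8500 to miR8799 (66.7%), 5 of 9 from miR9400 to miR9799 (55.6%), 3 of 10 from miR7400 to miR7599 (30%) and 4 of 26 from miR5200 to miR5699 (15.4%), against 22.2% of the 180 names. The members of the first block were miR8562c, miR8594.2, miR8632, miR8633, miR8646, miR8677, miR8718, miR8746, miR8753 and miR8768, with levels from 0.5 to 14.5 RPM. They share no seed among themselves, and none of them is among the 8 highest members.

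Just outside the rule stood 4 names above 0 at jointing with no earlier value above 1 RPM. miR1448 was listed at 0, 0, 0.4 and 9.2 RPM in the order of the stages, miR3476-5p at 0, 0, 0.9 and 13.0 RPM and miR4414b at 0, 0, 0.6 and 6.2 RPM, each left out by a low listing at spring green-up. miR1886h, at 0.7, 0, 1.0 and 1.1 RPM, varied little. Just inside the rule were the 3 members at 0.5 RPM. miR1448, miR3476-5p and miR4414b were each higher at jointing than the 22 members at or below 5 RPM, and differ in their listing from the members only in a listed value of 0.4 to 0.9 RPM at spring green-up.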

How the data were processed

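Small RNA of wheat leaves at 4 stages was sequenced with 1 library per stage. According to the methods of the study, adaptor sequences and poor reads were taken out, reads of other RNA classes were set aside, and the rest was compared by the authors with plant miRNAs of miRBase. The mismatch limit for a known name is given in the study both as fewer than 2 and as at most 2. The deposited values are RPM, reads per 1000000 mapped reads, as stated by the authors in the table headers, rounded to 1 decimal. Sequences of known names were taken from the supplementary table of the study and matched for all 40 members. The wheat gene table at hand was not used.

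The 373 entries gave 371 different names. The names kept had a number above 900, without 1117 to 1139, 5048 to 5086, 5163 to 5203, 9652 to 9680, 9772 to 9783, 2111, 2118, 2275 and 6118. The members and the lists were chosen with earlier results of these data known. Named in full were members above 5 RPM, members like or paired with another name, the lowest members and the names just outside the rule; 1 member above 5 RPM is counted but not reported singly here; other names were added where stated or as examples. Reads were estimated as RPM times mapped reads. Intervals are Garwood Poisson or Clopper-Pearson intervals at 95%, and PCR copies are not independent molecules. The calculations were tested on simulated data. Alternatives concerned level limits, summing of like names, the total used, and the limits for likeness. Python 3.11.15, numpy 2.4.6, pandas 2.3.3, scipy 1.17.1 and matplotlib 3.10.9 were used.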

Additional observations from a re-analysis of the deposited data

How the results depend on the processing

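A limit of 5 RPM at jointing left 18 of the 40 members, and the same limit left 4 names listed only at three-leaf and 6 listed only in winter dormancy, from 8 and 10 names. Limits of 1 RPM, summing of names with the same or nearly the same sequence, and summing over a miR number gave 30 to 39 members. The share of the known total held by the members, 1.58%, became 3.36% without miR168, 1.55% with the predicted miRNAs added to the total and 16.3% of the names that the number rule keeps. It was 0.166% without the 3 highest members, an alternative chosen after seeing the data. The share of members of 21 nt was 56.4% to 72.2% under all alternatives tried for it. With no mismatch allowed, 0 members had a near-identical name listed earlier, since miR5387a and miR5387b differ in 1 base, and the other limits for likeness gave 1 member. No paired analysis was possible because each stage had 1 library. No library could be left out, since each is its stage. The 10 members at or below 1 RPM rest on 11 to 20 estimated reads each.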
